A study of Homo sapiens with 6 samples.

Results

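The 39 genes described here are interferon-stimulated genes, a fixed list of symbols of which all 39 matched a row among the 20036 genes measured. Type I interferons bind a receptor that activates the kinases JAK1 and TYK2, which phosphorylate STAT proteins such as STAT2. With IRF9, STAT2 forms part of a complex that binds the interferon-stimulated response element (ISRE) near the start of many of these genes, and the proteins they encode sense viral RNA, block translation or trap virus particles. Many are also expressed at a low level without added interferon.

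RNA-seq was used to measure transcripts in MV411, a human cell line derived from acute myeloid leukaemia of the monocytic lineage, with a KMT2A fusion and a FLT3 internal tandem duplication, whose genotype is given as WT in both groups. One group of 3 libraries had been exposed to corilagin, an ellagitannin of plants, for 48 h and the other group of 3 libraries to DMSO for 48 h. No dose and no interferon treatment are named in the labels. Nothing states that the libraries of a group are separate cultures, and the p-values therefore cover the spread between libraries alone, which may be technical. Of the markers of the line, CD33 lay at 21.2 to 25.05 FPKM over all libraries, FLT3 at 307 to 318 FPKM with corilagin and at 186 to 261 FPKM with DMSO, and CD14 at no more than 0.340 FPKM. FLT3, ITGAM (2.78 to 2.88 against 1.18 to 1.54 FPKM in DMSO) and MEIS1 (6.13 to 6.37 against 4.25 to 5.28 FPKM) lay above the DMSO libraries without overlap. CSF1R (12.1 to 14.9 against 15.1 to 19.7 FPKM) and MPO (0.321 to 0.710 against 1.25 to 1.93 FPKM) lay below them, HOXA9, CD33 and CD14 overlapped, and the part of these markers in the results below was not tested. MS4A1, HBA1 and EPCAM, markers of B cells, red cells and epithelium, were listed at 0 in every library, and the T cell and natural killer cell markers CD3E and KLRD1 reached no more than 0.0206 and 0.00531 FPKM. FPKM is fragments of a gene scaled to its length and to the fragments of the library. In bulk RNA, fewer cells carrying a transcript and less of it per cell cannot be told apart.

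The ISRE is shown first because it is the sequence feature by which these genes are usually recognised. RefSeq (GRCh38.p14) start site windows, 250 bases before to 50 bases after a start, were at hand for 31 of the 39 members, and the core motif of GAAA, any 2 bases and GAAA again, searched on both strands (TTTC repeats on the other), was found in 20 of them, or 64.5%, against 4.38% of the 27305 genes with windows of the same length. The other motif searched, the GAS motif TTCNNNGAA, was in 10 of the 31 members and 9.38% of all genes. A gene can have several windows, and a match describes letters only. The 8 members without an entry were IFIT2, IRF7, LY6E, MX2, OAS2, OASL, TRIM22 and USP18. The windows below are stretches of 30 bases, written 5′ to 3′ on the strand of the gene, with the motif in capitals and its first base counted from the RefSeq start. The first set belongs to members that rose in the fit on fragments described below.
IFIT1 (chr10:89392502-89392531, plus strand, motif at -116): tttagTTTCACTTTCcccTTTCGGTTTCcc
IFIT3 (chr10:89332473-89332502, plus strand, motif at -51): atcagTTTCACTTTCctttcccctttcata
IFIT5 (chr10:89414518-89414547, plus strand, motif at -45): ttaagTTTCGGTTTCtgaagcttacgttta
DDX60 (chr4:168318781-168318810, minus strand, motif at -53): gaaagGAAACCGAAActcccgccggatgca
RSAD2 (chr2:6877627-6877656, plus strand, motif at -145): tcaacTTTCAGTTTCacatgtggaaaaatc
IFI6 (chr1:27672324-27672353, minus strand, motif at -156): gagggGAAAATGAAActctgcagagtgcag
SAMD9 (chr7:93118091-93118120, minus strand, motif at -136): gaaatGAAACTGAAAccaaacctatattct
ISG20 (chr15:88638942-88638971, plus strand, motif at -69): aactaGAAACTGAAAcagggtcgggatgcc
PARP9 (chr3:122564317-122564346, minus strand, motif at -41): caaagTTTCAGTTTCgcttccctggaggtc
EIF2AK2 and IFI44 carry the motif and rose as well, and are not shown. The second set belongs to some of the members that carry the motif and were not called higher. HERC5, PARP14, MX1, OAS3, IFI27 and IFI44L also carry it without a call in that fit and are not shown.
ISG15 (chr1:1013379-1013408, plus strand, motif at -113): ctcggGAAAGGGAAACCGAAActgaagcca
BST2 (chr19:17405736-17405765, minus strand, motif at -130): tctggGAAACTGAAACTGAAAacctaatta
IFIH1 (chr2:162318819-162318848, minus strand, motif at -159): ttcgcTTTCCTTTTCTGTTTCccgcggtgt
In GENCODE release 29 the SAMD9 stretch lies between genes, those of IFIT1, IFI6, RSAD2 and ISG15 in introns (of LIPA, AL445490.1, RSAD2 and ISG15), and those of IFIT3, IFIT5, DDX60, ISG20, PARP9, BST2 and IFIH1 touch an exon of the gene or of a neighbour. Among the 20 members with the motif 11 were called higher in the fit on fragments, among the 11 without it 7, and among the 8 with no window 4. Of all genes in that fit 12.5% were called higher. The called members with the motif include IFIT1, which entered the fit only through its corilagin libraries. IFIT1 carried a second copy at -103, whereas OAS1, STAT2 and CMPK2, whose windows held no match, were also called. These shares were not tested against each other.

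The 6 libraries held 17776956 to 21640689 fragments each, as implied by the FPKM values. DMSO replicate 3 stood apart from the other controls along transcript GC content. Among the eighth of the genes of lowest GC content (31.3 to 38.95%), the median log2 deviation from a gene's mean was -0.48 and -0.42 in DMSO replicates 1 and 2, and 0.23 in DMSO replicate 3, beside the corilagin libraries at 0.20 to 0.25. Results that rest on this difference are given below against DMSO replicate 3 alone and with the GC trend of each library removed.

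Members that passed the test after corilagin were higher, and IFIT1, IFIT2 and IFIT3, with the largest differences on fragments, were expressed at low levels. Among the most abundant members, BST2, LY6E, UBE2L6 and ISG15 did not pass the test as deposited. On log2(FPKM + 1), limma with adjustment over the 9868 genes that averaged 1 FPKM or more called 14 of the 39 members higher (11.9% of all tested genes were) and 0 lower (13.5%), left 12 without a call, and did not test 13 with a mean under 1 FPKM. At an unadjusted p under 0.05, 19 members were higher and 2 (BST2 and LY6E) were lower. IFIT2, IFIT3, HERC6 and SAMD9L passed the filter of 1 FPKM only through the corilagin libraries, so the count over tested members supports nothing by itself. All 39 members could be tested on whole fragments recovered from the FPKM steps, by limma-voom over 12064 genes with a mean of at least 10 fragments. That fit, added after the data were seen, called 22 members higher (12.5% of its genes) and 0 lower (11.4%, with 2 members lower at an unadjusted p under 0.05). The median log2 difference of all 39 members was 0.60, against 0.06 over all genes tested. Even here IFIT1, OAS3 and IFI44L had a DMSO mean under 10 fragments and passed the minimum only through the corilagin libraries. The 22 members include IFIT1, and the 25 given next include IFIT1 and OAS3. Those calls support nothing by themselves. With the GC trend removed, the fit on fragments called 25 members higher (17.4%) and 1 lower (22.0%), with a median of 0.41 against -0.02 over all genes.

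The plot of FPKM by library gives every member's values. The groups did not overlap for 25 members that were higher (24.6% of genes with a mean of at least 10 fragments) and for 1 that was lower, UBE2L6 (20.9%). The exact 2-sided permutation test of a single gene cannot give less than p = 0.1 with 3 against 3 libraries, and 26 members reached that value.

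**Figure D1:**
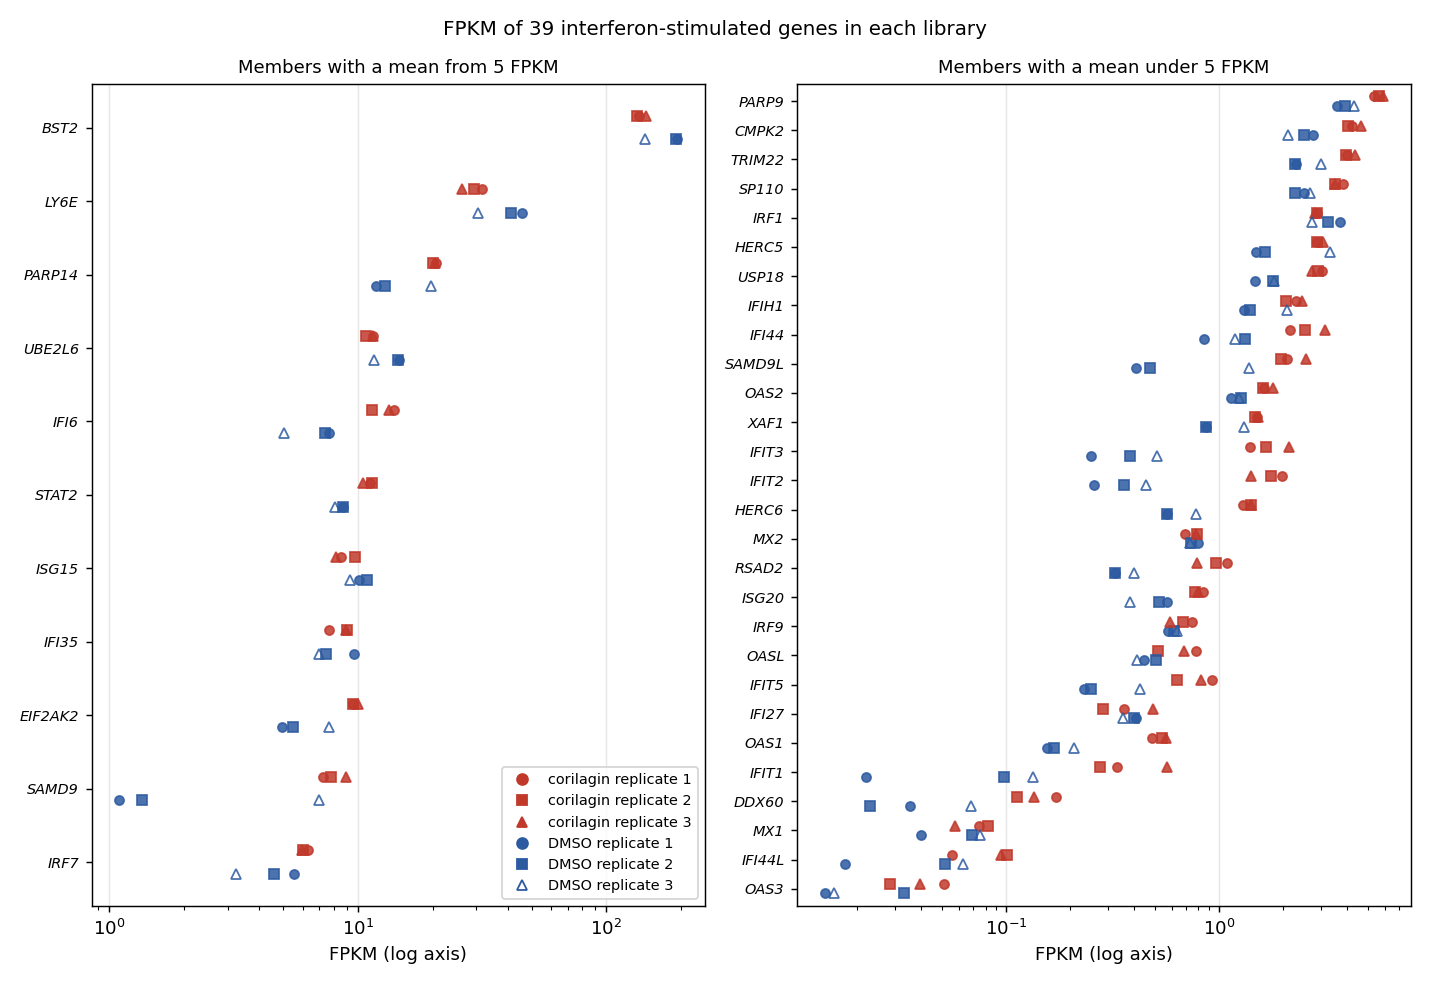
FPKM (log axis) of each of the 39 members in the 3 corilagin libraries (red) and 3 DMSO libraries (blue, DMSO replicate 3 as open triangles), with the 11 members with a mean from 5 FPKM on the left and the 28 members under 5 FPKM on the right. IFIT1, IFIT2 and IFIT3 sit clear of their controls, BST2 and LY6E lie at or below theirs, and for SAMD9 and PARP14 the open triangle lies next to the corilagin points.

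Of the 39 members 11 averaged 5 FPKM or more and 28 less. IRF7 lay just inside at a mean of 5.28 FPKM and PARP9 just outside at 4.77 FPKM. IRF7 and SAMD9, with DMSO means of 4.45 and 3.14 FPKM, reached 5 FPKM only through the corilagin libraries. Of the 11 better expressed members, limma on log2(FPKM + 1) called IFI6, EIF2AK2 and STAT2 higher (11.9% of all genes were) and none lower (13.5%; 2 at an unadjusted p under 0.05), and the median difference was 0.34 log2 units, against 0.03 over all genes tested. Of the 28 low members it called 11 higher, beside the same 11.9%, and 0 lower (0 also at an unadjusted p under 0.05), with 4 not called and 13 not tested. Among these 11, IFIT2, IFIT3, HERC6 and SAMD9L passed the filter of 1 FPKM only through the corilagin libraries. The fit on fragments called 4 of the 11 and 18 of the 28 higher, beside 12.5% of all its genes. Its median difference was 0.38 for the better expressed members and 0.75 for the low ones, against 0.06 over all genes tested. The 4 include SAMD9 and the 18 include IFIT1. IFIT1, OAS3 and IFI44L enter the low median and passed the minimum of 10 fragments only through the corilagin libraries. The counts and medians by level rest in part on how members were selected and support nothing by themselves.

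By level, BST2 (157 FPKM over all 6 libraries) and LY6E (34.1 FPKM) led the list, followed by PARP14 (17.6), UBE2L6 (12.4), IFI6 (9.78), STAT2 (9.78) and ISG15 (9.45). OAS3, IFI44L, MX1 and DDX60 were lowest, at 0.0303 to 0.0908 FPKM. From PARP14 down to ISG15 the ranges over libraries of neighbours overlap, so their order is within the spread. The gene lengths implied by FPKM are long for some members, with 13021 bases for OAS1 and 17984 for MX1, and a long gene model lowers FPKM for the same number of fragments.

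Among the sensor and the transcription factors, STAT2 was the member called as deposited. STAT2, a subunit of the interferon-activated complex, was at 11.2, 11.4 and 10.5 FPKM after corilagin and 8.72, 8.75 and 8.08 FPKM in DMSO. All 3 corilagin libraries lay above every control, a 1.30-fold difference that passed (log2 difference 0.34, SE 0.0801, adjusted p = 0.0262 in limma) and was lost under quantile normalization. IRF7, the factor that amplifies type I interferon genes, was at 6.32, 6.01 and 5.98 FPKM after corilagin and 5.51, 4.62 and 3.23 FPKM in DMSO. Its groups do not overlap, but the controls spread widely, and it was not called until the GC trend was removed (log2 difference 0.40, adjusted p = 0.0875 as deposited and log2 difference 0.66, adjusted p = 0.000698 with the trend removed, both in limma). IRF9, the DNA-contacting part of the complex, had only 105, 86 and 70 fragments after corilagin and 73, 80 and 73 fragments in DMSO and was not called (limma-voom adjusted p = 0.485). The gene overlaps another model on its own strand, so reads may be shared. IRF1, a factor induced by interferon gamma, was at 2.86 ± 0.0363 FPKM with corilagin and 3.23 ± 0.473 FPKM with DMSO (SD, n = 3) and did not pass (adjusted p = 0.344 in limma). IFIH1, which encodes the double-stranded RNA sensor MDA5, was at 2.31, 2.06 and 2.46 FPKM after corilagin and 1.31, 1.39 and 2.08 FPKM in DMSO. Its corilagin mean was 1.68 times that of DMSO replicates 1 and 2 and 1.10 times DMSO replicate 3, and it was not called (limma adjusted p = 0.0729).

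The effectors that act on RNA had the largest median difference of the 5 roles into which the members were sorted, 1.43 log2 units on fragments against 0.38 to 0.70 for the others. Of these 11 genes, 9 were called higher in the fit on fragments (12.5% of all genes) and all 11 with the GC trend removed (17.4%), and every corilagin library exceeded DMSO replicate 3 for all 11 (40.4%). Among them IFIT1 and OAS3 passed the minimum of 10 fragments only through the corilagin libraries. The counts and the median of this role rest in part on that filter. The IFIT proteins bind foreign RNA ends and block translation. IFIT2 had 184, 149 and 112 fragments after corilagin and 22, 31 and 35 fragments in DMSO. In FPKM it was at 1.97, 1.76 and 1.41 FPKM after corilagin and 0.259, 0.357 and 0.455 FPKM in DMSO, a 4.80-fold rise in which the lowest corilagin library was above the highest control (log2 difference 0.997, SE 0.0997, adjusted p = 0.00250 in limma on log2(FPKM + 1), and 2.28 log2 units on fragments). IFIT3, its binding partner, had 154, 164 and 198 fragments after corilagin and 25, 39 and 46 fragments in DMSO, 4.54-fold higher in FPKM (log2 difference 0.98, SE 0.119, adjusted p = 0.00400 in limma). These 2 genes kept their calls when any one library was left out, with an adjusted p of at most 0.0297. Both passed the filter of 1 FPKM only through the corilagin libraries, so these limma tests support nothing by themselves. On fragments their DMSO means were 29.3 and 36.7, above the minimum of 10, and both were called (adjusted p = 0.00291 and 0.00469 in limma-voom). IFIT1, which recognises RNA caps that lack 2′-O methylation, had 33, 25 and 48 fragments after corilagin and 2, 9 and 11 fragments in DMSO. Its log2 difference on fragments was 2.37 (SE 0.582). It passed the minimum of 10 fragments only through the corilagin libraries, so no test is given for it. IFIT5 had 88, 54 and 66 fragments after corilagin and 20, 22 and 33 fragments in DMSO, again without overlap (log2 difference 1.43, adjusted p = 0.0157 in limma-voom). Exons of IFIT2 overlap those of LIPA on the other strand, a lysosomal lipase that was itself 1.25-fold higher, from 26.6 ± 0.701 to 33.2 ± 0.321 FPKM (adjusted p = 0.0230 in limma), and the sharing of reads was not tested.

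The oligoadenylate synthetases, which make short 2′-5′ linked adenylates on double-stranded RNA, differed among themselves. OAS1 had 137, 137 and 134 fragments after corilagin and 40, 44 and 48 fragments in DMSO, a 2.98-fold rise in FPKM with a narrow spread in both groups (log2 difference 1.58, SE 0.171, adjusted p = 0.00291 in limma-voom). OAS2 was at 1.62, 1.62 and 1.79 FPKM after corilagin and 1.14, 1.27 and 1.24 FPKM in DMSO, a 1.37-fold rise (log2 difference 0.27, SE 0.0704, adjusted p = 0.0338 in limma) that was lost under quantile normalization. OAS3 was barely detected, with 20, 10 and 13 fragments after corilagin and 5, 12 and 5 fragments in DMSO, and OASL, which lacks synthetase activity, had 107, 64 and 79 fragments after corilagin and 55, 64 and 46 fragments in DMSO. OAS3 passed the minimum of 10 fragments only through the corilagin libraries, so no test is given for it. OASL was not called before the GC trend was removed (limma-voom adjusted p = 0.0936) and was called after it (0.0274). The 3 OAS genes lie side by side on chromosome 12, from 112906777 to 113011723 (GRCh38), with 5130 and 5146 bases between them, and were 2.98-fold, 1.89-fold and 1.37-fold higher in FPKM in the order OAS1, OAS3, OAS2.

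EIF2AK2 encodes PKR, the kinase that halts translation on double-stranded RNA. It was at 9.59, 9.59 and 10.01 FPKM after corilagin and 4.97, 5.50 and 7.67 FPKM in DMSO, higher in every corilagin library (log2 difference 0.63, SE 0.142, adjusted p = 0.0241 in limma). DMSO replicate 3 lay between the other controls and the corilagin libraries, and the difference was 0.22 once GC trends were taken out (limma adjusted p = 0.0141). GPATCH11, whose exons overlap it on the other strand, was 1.71-fold higher (limma adjusted p = 0.0315), and the sharing of reads was not tested. DDX60, a helicase linked to RNA sensing, had 64, 38 and 43 fragments after corilagin and 12, 8 and 21 fragments in DMSO. The counts are small, but no control library reached the lowest corilagin library (log2 difference 1.83, adjusted p = 0.0177 in limma-voom). ISG20, a 3′ to 5′ exonuclease, had 130, 108 and 105 fragments after corilagin and 80, 75 and 49 fragments in DMSO and was also higher (log2 difference 0.72, adjusted p = 0.0286 in limma-voom).

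**Figure D2:**
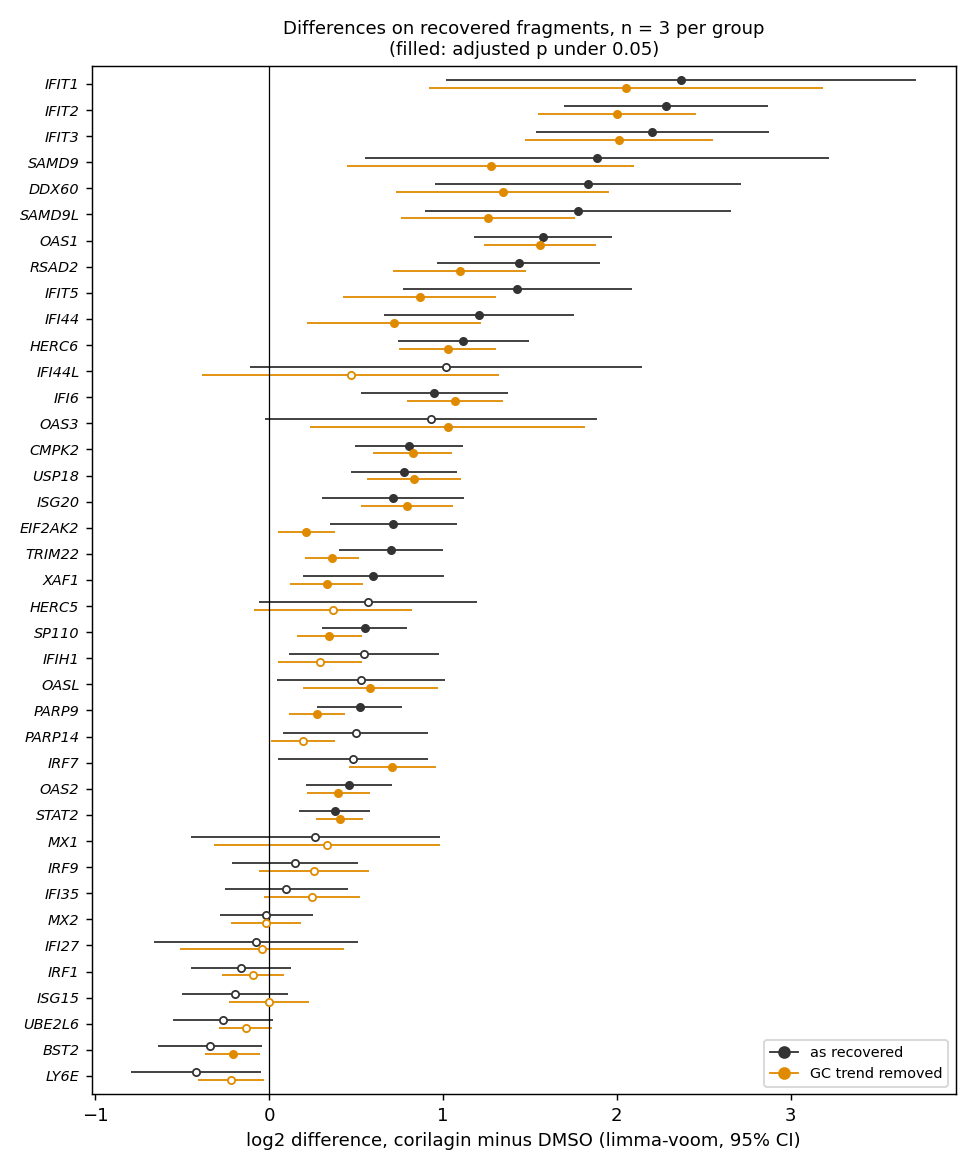
Log2 difference of corilagin from DMSO on recovered fragments for the 39 members (limma-voom, 3 libraries per group, bars are 95% confidence intervals), as recovered (dark) and with the GC trend of each library removed (orange), filled where the adjusted p is under 0.05. IFIT1, IFIT2 and IFIT3 lie at 2.37, 2.28 and 2.20 and at 2.05, 2.001 and 2.01 with the trend removed, while the estimates of SAMD9, SAMD9L, IFIT5 and EIF2AK2 move toward 0.

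In the ISG15 system, the deconjugating protease and one HERC gene rose, and the modifier and its conjugating enzyme were not called. ISG15, a ubiquitin-like protein attached to other proteins, was at 8.58, 9.73 and 8.13 FPKM after corilagin and 10.1, 10.9 and 9.28 FPKM in DMSO. The groups overlap and no call was made (limma log2 difference -0.18, adjusted p = 0.197, and 0.06 log2 units with the GC trend removed), and on fragments the 95% interval of its log2 difference was -0.50 to 0.11. UBE2L6, the E2 enzyme that conjugates ISG15, was at 11.5, 10.8 and 11.6 FPKM after corilagin and 14.7, 14.6 and 11.6 FPKM in DMSO. Every corilagin library lay below every control, although DMSO replicate 3 lay close to the corilagin libraries, and the difference was not called (limma adjusted p = 0.119). USP18 removes ISG15 from proteins and restrains signalling at the interferon receptor. It was at 3.04, 2.91 and 2.72 FPKM after corilagin and 1.48, 1.79 and 1.81 FPKM in DMSO, a 1.71-fold rise (log2 difference 0.53, SE 0.0845, adjusted p = 0.00876 in limma), lost without corilagin replicate 1 or 2 (adjusted p of at most 0.0577). The E3 ligase HERC5 was at 2.88, 2.89 and 3.09 FPKM after corilagin and 1.48, 1.64 and 3.31 FPKM in DMSO. Here DMSO replicate 3 was the highest library of all, and no call was made (limma adjusted p = 0.177). Its neighbour HERC6, 14006 bases away on chromosome 4, was at 1.30, 1.42 and 1.41 FPKM after corilagin and 0.572, 0.569 and 0.779 FPKM in DMSO and rose 2.15-fold (log2 difference 0.54, SE 0.0779, adjusted p = 0.00727 in limma), 1.76-fold against DMSO replicate 3 alone. That call was lost without corilagin replicate 2 (adjusted p = 0.0509). HERC6 passed the filter of 1 FPKM only through the corilagin libraries, so its limma test supports nothing by itself. On fragments, with a DMSO mean of 70.3, its log2 difference was 1.12 (adjusted p = 0.00674 in limma-voom).

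Of the 9 restriction factors 5 rose in the fit on fragments (RSAD2, CMPK2, TRIM22, SAMD9 and SAMD9L), beside 12.5% of all genes, and 0 were called lower (11.4% of all genes; 2 at an unadjusted p under 0.05). RSAD2, the radical SAM enzyme viperin, makes a chain-terminating nucleotide from CTP, and CMPK2, a nucleotide kinase, overlaps it on the other strand of chromosome 2. RSAD2 had 133, 107 and 82 fragments after corilagin and 36, 37 and 40 fragments in DMSO (log2 difference 1.44, SE 0.202, adjusted p = 0.00601 in limma-voom), and CMPK2 was at 4.20, 4.05 and 4.62 FPKM after corilagin and 2.77, 2.5 and 2.1 FPKM in DMSO (log2 difference 0.62, SE 0.0993, adjusted p = 0.00904 in limma). Both rose, 2.72-fold and 1.75-fold in FPKM, and since their exons overlap on opposite strands part of the reads could belong to either. The CMPK2 call was lost without any one corilagin library (adjusted p of at most 0.0577). TRIM22, a RING finger protein, was at 3.98, 3.92 and 4.33 FPKM after corilagin and 2.31, 2.27 and 3.01 FPKM in DMSO and was higher in every corilagin library (log2 difference 0.53, SE 0.103, adjusted p = 0.0154 in limma). MX1 and MX2, dynamin-like GTPases, were not called. MX1 had 29, 29 and 19 fragments after corilagin and 14, 25 and 24 fragments in DMSO, and MX2, at 0.751 ± 0.0539 FPKM with corilagin and 0.757 ± 0.0347 FPKM with DMSO (SD, n = 3), had a log2 difference on fragments with a 95% interval of -0.28 to 0.25.

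The abundant membrane proteins were not called higher. BST2, or tetherin, which holds budding virions on the cell surface, was at 135, 133 and 144 FPKM after corilagin and 193, 191 and 143 FPKM in DMSO. The corilagin libraries and DMSO replicate 3 lie together, below DMSO replicates 1 and 2, and no call was made as deposited (limma adjusted p = 0.0793). On fragments with the GC trend removed it was called lower (log2 difference -0.21, adjusted p = 0.0440 in limma-voom). LY6E, a GPI-anchored protein that restricts virus entry, was at 31.5, 29.3 and 26.1 FPKM after corilagin and 45.6, 41.5 and 30.5 FPKM in DMSO. Again DMSO replicate 3 fell among the corilagin libraries, and the gene was not called (limma adjusted p = 0.0834).

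SAMD9 and SAMD9L, paralogs 12032 bases apart on chromosome 7 that restrain translation and growth, depended most on the control library. SAMD9 was at 7.23, 7.81 and 8.95 FPKM after corilagin and 1.10, 1.35 and 6.98 FPKM in DMSO. Its corilagin mean was 6.53 times that of DMSO replicates 1 and 2 but 1.15 times DMSO replicate 3, and limma did not call it as deposited (log2 difference 1.40, SE 0.470, adjusted p = 0.0644) but did with the GC trend removed (0.92, adjusted p = 0.0272). On fragments it lay just inside the threshold (adjusted p = 0.04996 in limma-voom). SAMD9L was at 2.08, 1.95 and 2.56 FPKM after corilagin and 0.407, 0.474 and 1.39 FPKM in DMSO, 1.58-fold above DMSO replicate 3 and 4.98-fold above the other controls (log2 difference 0.90, SE 0.202, adjusted p = 0.0229 in limma). SAMD9L passed the filter of 1 FPKM only through the corilagin libraries, so its limma test supports nothing by itself. On fragments, with a DMSO mean of 112, its log2 difference was 1.78 (adjusted p = 0.0196 in limma-voom). Close paralogs can share reads, and SAMD9 and SAMD9L were not separated further.

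Of the other members, IFI6, a mitochondrial and endoplasmic reticulum protein that restrains cell death, rose. It was at 13.9, 11.4 and 13.3 FPKM after corilagin and 7.66, 7.40 and 5.05 FPKM in DMSO, a 1.92-fold rise, 2.55-fold against DMSO replicate 3, which was its lowest library (log2 difference 0.86, SE 0.156, adjusted p = 0.0129 in limma). The call was lost without any one corilagin library (adjusted p of at most 0.0722) and the difference grew to 1.01 with the GC trend removed. IFI44 was at 2.15, 2.53 and 3.14 FPKM after corilagin and 0.849, 1.32 and 1.19 FPKM in DMSO and rose 2.33-fold (log2 difference 0.77, SE 0.130, adjusted p = 0.0108 in limma), a call that ended with the trend removed (0.37, adjusted p = 0.0894) or without corilagin replicate 2 or 3 (adjusted p of at most 0.0565). On fragments it was called with the trend removed too (log2 difference 0.72, adjusted p = 0.0322 in limma-voom). Its paralog IFI44L, 3651 bases away on chromosome 1, had 14, 23 and 20 fragments after corilagin and 4, 12 and 13 fragments in DMSO and was not called (limma-voom adjusted p = 0.144).

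PARP9 and PARP14 are ADP-ribosyltransferase family proteins encoded on chromosome 3. PARP9 was at 5.32, 5.65 and 5.86 FPKM after corilagin and 3.56, 3.89 and 4.31 FPKM in DMSO and was higher in every corilagin library (log2 difference 0.43, SE 0.0903, adjusted p = 0.0195 in limma). It shares exon sequence with DTX3L, its partner ubiquitin ligase on the other strand, which was 1.32-fold higher (limma adjusted p = 0.0263). PARP14 was at 20.6, 20.0 and 20.4 FPKM after corilagin and 11.8, 12.8 and 19.7 FPKM in DMSO. Its lowest corilagin library exceeded DMSO replicate 3 by little, a mean ratio of 1.03, and it was not called (limma adjusted p = 0.0822). SP110, a nuclear body protein, was at 3.84, 3.52 and 3.51 FPKM after corilagin and 2.51, 2.26 and 2.67 FPKM in DMSO and rose 1.46-fold (log2 difference 0.41, SE 0.0829, adjusted p = 0.0173 in limma). XAF1, an antagonist of XIAP, was at 1.51, 1.47 and 1.53 FPKM after corilagin and 0.869, 0.866 and 1.31 FPKM in DMSO, close to the threshold (limma adjusted p = 0.0532, and 0.0439 on fragments). IFI35 and IFI27 were not called, at 8.55 ± 0.802 FPKM with corilagin and 8.01 ± 1.41 FPKM with DMSO and at 0.376 ± 0.103 FPKM with corilagin and 0.385 ± 0.0281 FPKM with DMSO (SD, n = 3).

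The calls for STAT2, OAS2, EIF2AK2, TRIM22, SAMD9L, PARP9 and SP110 were each lost when any one library other than DMSO replicate 3 was left out, with adjusted p of at most 0.134. Of the 14 calls on log2(FPKM + 1), 2 to 7 remained without any one of those 5 libraries and all 14 without DMSO replicate 3. The number of calls over all genes fell in the same fits, from 1171 higher to between 131 and 369. Without DMSO replicate 3, when 4030 genes were called higher and 3597 lower, limma called IRF7, SAMD9 and PARP14 higher as well, at log2 differences of 0.23, 2.01 and 0.68. In the same fit ISG15, UBE2L6, BST2 and LY6E were called lower, at -0.23, -0.35, -0.48 and -0.57. With all libraries but the GC trend removed, the differences of TRIM22, SAMD9L, PARP9 and SP110 were 0.26, 0.49, 0.24 and 0.26 log2 units, and these 4 genes were still called.

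The position of DMSO replicate 3 among the controls followed the GC content of the members, as in the plot of control libraries against GC content. Of the 18 members with a GC content under 45% in their longest transcript, DMSO replicate 3 was above both other controls in 17, by a median factor of 1.57. Of the 21 members from 45% upward it was below both in 14 and above both in 5, with a median factor of 0.864. Across the 39 members, which share libraries and are not replicates, the Spearman correlation of GC content was -0.846 with the ratio of DMSO replicate 3 to the other controls and -0.264 with the ratio of corilagin to DMSO replicate 3.

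**Figure D3:**
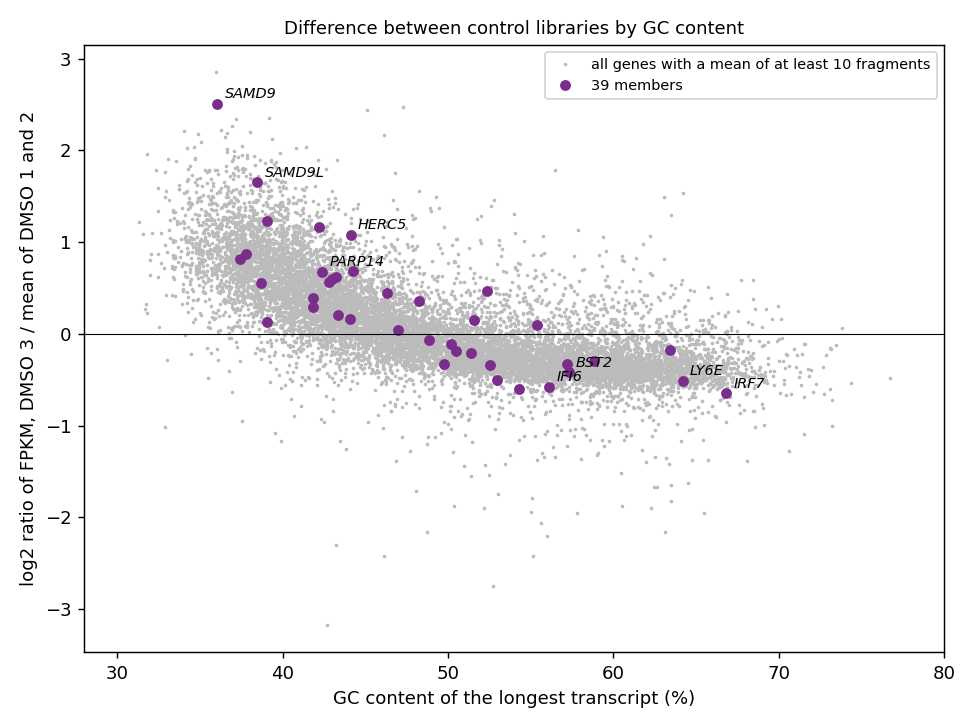
Log2 ratio of FPKM in DMSO replicate 3 to the mean of DMSO replicates 1 and 2 (vertical axis) against the GC content of the longest transcript in percent (horizontal axis), for all genes with a mean of at least 10 fragments (grey) and the 39 members (purple). The members lie along the band of all genes, with SAMD9 and SAMD9L at the upper left and IRF7 and LY6E below 0 at the right.

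Set against DMSO replicate 3 alone, all 3 corilagin libraries were above it for 28 of the 39 members (40.4% of genes with a mean of at least 10 fragments) and below it for 2, HERC5 and UBE2L6 (36.5%). The median ratio of corilagin to DMSO replicate 3 was 1.36 for the 18 members of low GC content and 1.35 for the other 21, against 2.41 and 1.27 relative to DMSO replicates 1 and 2. IFIT2, IFIT3 and IFIT1 were 3.77-fold, 3.39-fold and 2.92-fold above DMSO replicate 3, and OAS3, IFI6, OAS1, RSAD2, IFI44, ISG20, DDX60 and CMPK2 were 2.04-fold to 2.55-fold above it. With 1 control library these ratios have no test.

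**Figure D4:**
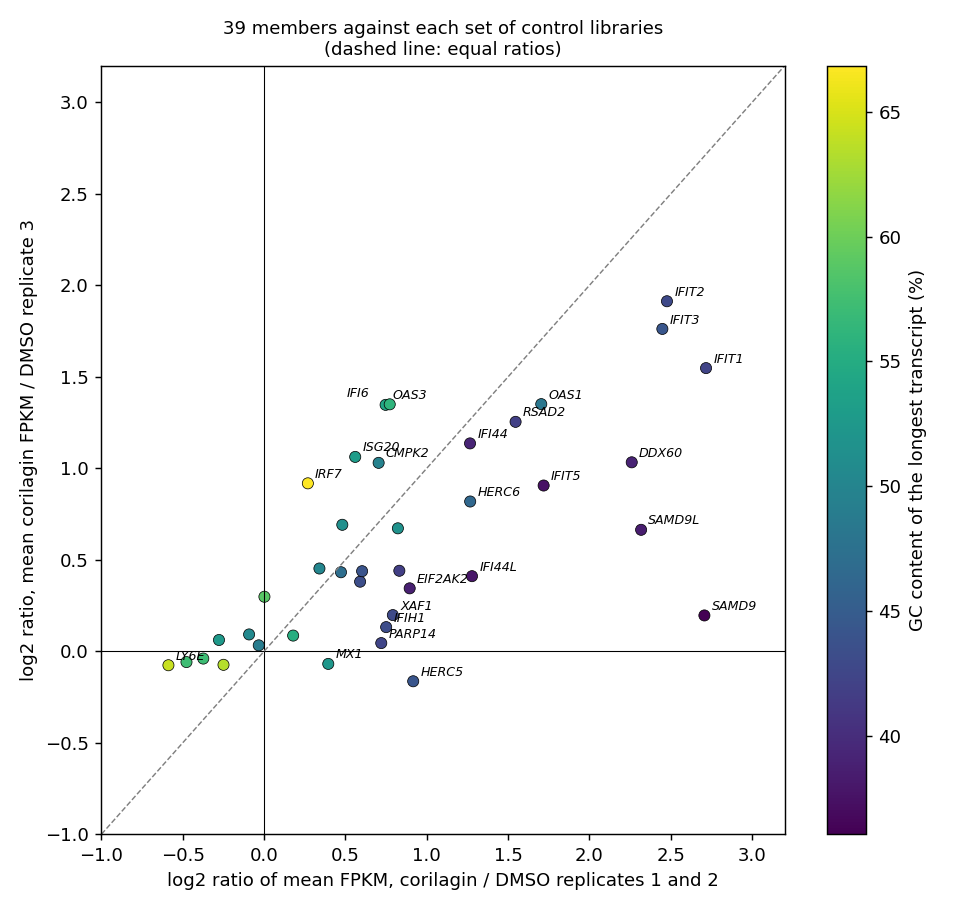
Log2 ratio of the mean corilagin FPKM to DMSO replicate 3 (vertical axis) against its log2 ratio to the mean of DMSO replicates 1 and 2 (horizontal axis) for the 39 members, coloured by the GC content of the longest transcript in percent; the dashed line marks equal ratios. IFIT1, IFIT2 and IFIT3 are far from 0 on both axes, SAMD9 is 6.53-fold on one and 1.15-fold on the other, and IRF7, IFI6 and ISG20 lie above the line.

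Of 72 further genes of the interferon pathway, none of them members, limma on log2(FPKM + 1) called 8 higher and 6 lower (11.9% and 13.5% of all genes; median difference 0.08 against 0.03), left 37 without a call and did not test 21. With the GC trend removed 17 were higher and 7 lower (21.4% and 23.0% of all genes). On fragments, where 56 of the 72 were tested, 11 were higher and 6 lower (12.5% and 11.4% of all genes). The 8 higher on FPKM include PARP12 and the 11 on fragments include TLR8. Both genes passed the respective minimum only through the corilagin libraries. Of the 9 interferon genes in the list, IFNB1, IFNA1, IFNA2, IFNE, IFNG and IFNL3 were listed at 0 in every library, and the highest value of the others was 0.0874 FPKM, for IFNK in 1 library. The receptor chains IFNAR1 and IFNAR2 were present. IFNAR1 was at 7.33, 7.5 and 7.5 FPKM after corilagin and 4.31, 5.03 and 6.72 FPKM in DMSO and IFNAR2 at 1.54 ± 0.0533 FPKM with corilagin and 1.13 ± 0.205 FPKM with DMSO, neither called as deposited (limma adjusted p = 0.0598 and 0.0629). Both were called higher once GC trends were taken out (0.19 and 0.24 log2 units, limma adjusted p = 0.0345 and 0.0450). On fragments IFNAR2 was called and IFNAR1 was not (limma-voom adjusted p = 0.0468 and 0.0528). JAK1 was at 13.4, 13.6 and 13.3 FPKM after corilagin and 8.42, 8.75 and 10.4 FPKM in DMSO and rose (log2 difference 0.50, SE 0.0965, adjusted p = 0.0147 in limma), and TYK2, at 32.6 ± 1.05 FPKM with corilagin and 30.1 ± 3.34 FPKM with DMSO, was not called as deposited (adjusted p = 0.381). Once GC trends were taken out TYK2 was called higher as well (log2 difference 0.33, adjusted p = 0.000800 in limma).

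IRF8, a factor of monocyte development, fell from 55.7 ± 2.37 to 39.4 ± 0.569 FPKM (log2 difference -0.49, adjusted p = 0.00742 in limma). Of the nucleic acid sensors and their adaptors, RIGI had 17 to 34 fragments, and CGAS, STING1 and MAVS were at 21.9, 23.8 and 19.7 FPKM over all libraries without a call (limma adjusted p = 0.369, 0.769 and 0.165). Without DMSO replicate 3, STING1 and MAVS were called lower (-0.17 and -0.25 log2 units), and IFNAR1 and IFNAR2 higher (0.58 and 0.34). IKBKE, a kinase upstream of interferon genes, fell (log2 difference -0.55, adjusted p = 0.0136 in limma). Among further interferon-induced genes, PLSCR1, a scramblase family protein, rose 1.82-fold to 17.5 ± 0.304 FPKM, PARP12 2.65-fold to 1.95 ± 0.0870 FPKM, SP100 1.75-fold and GBP2 1.60-fold (limma adjusted p = 0.00305, 0.00216, 0.0109 and 0.0165). TRIM14, an adaptor of mitochondrial antiviral signalling, went the other way, at 5.05, 5.06 and 4.94 FPKM after corilagin and 13.5, 14.2 and 11.2 FPKM in DMSO. No corilagin library came near the lowest control, and TRIM14 fell to 0.387 of its DMSO level (log2 difference -1.21, SE 0.102, adjusted p = 0.00189 in limma). Further calls, named after their values were seen, were DHX58 (higher) and SOCS3, TAP1 and PSMB8 (lower), with limma adjusted p of 0.0258, 0.0309, 0.0417 and 0.0490. SOCS3, TAP1 and PSMB8 lost their calls without a filter on low values (adjusted p = 0.0537, 0.0755 and 0.0734 in limma). The SOCS3 call also ended once GC trends were taken out (-0.11 log2 units, limma adjusted p = 0.346). In that fit PLSCR1, SP100, TAP1 and IKBKE were still called, at 0.43, 0.43, -0.28 and -0.37 log2 units. PARP12 averaged 0.735 FPKM in DMSO and passed the filter of 1 FPKM only through the corilagin libraries, so its limma tests support nothing by themselves. PLSCR1, PARP12 and TRIM14 kept their calls without any one library (limma adjusted p of at most 0.0315). JAK1 lost its call without any of the libraries but DMSO replicate 3 (adjusted p up to 0.0794). GBP2, IKBKE and SP100 lost theirs without any one corilagin library or DMSO replicate 2, and IRF8 without any one corilagin library (adjusted p up to 0.0836, 0.0755, 0.0644 and 0.0556).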

How the data were processed

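RNA-seq of 6 MV411 libraries, 3 after corilagin and 3 after DMSO for 48 h, was deposited by the authors as FPKM per gene. The submitters' processing notes name fastp 0.22.0, HISAT2 2.1.0 and HTSeq 0.9.1. The genome build and strand setting are not given in the sources used here. Of 20036 Ensembl gene identifiers 20011 matched a symbol and 19852 matched GENCODE release 29, which gave positions, GC content (longest transcript) and overlaps.

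Differences were tested on log2(FPKM + 1) for genes averaging 1 FPKM or more, by limma 3.58.1 (R 4.3.3, empirical Bayes with a trend, 2-sided), with Benjamini-Hochberg adjustment over all genes tested and a threshold of 0.05. Test code was checked on simulated data. Because low FPKM values are whole multiples of what 1 fragment is worth, whole fragments were recovered for all 15921 genes above 0 (tolerance 0.001), and limma-voom was run on genes with a mean of at least 10 fragments. This fit, and the same with GC trends removed, were chosen after seeing the data. The GC trend of each library was removed as a natural spline with 5 degrees of freedom. A depth of 17776956 to 21640689 fragments per library means that members with a few fragments carry large counting error. Intervals are 95% intervals of the fits.

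The text gives in full the members averaging 5 FPKM or more and those called. Of the pathway list it names up to 8 called genes with the largest differences, and IFNB1, IFNAR1, IFNAR2, JAK1, TYK2, RIGI, MAVS, CGAS and STING1. Members tested only on fragments, and further named genes, were described after their values were seen. The members and lists were chosen with earlier results of these data known. Alternatives covered the pseudocount, the filter, scaling, GC content, the replicate block and leaving out each library. Some items are not reported here.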

Additional observations from a re-analysis of the deposited data

How the results depend on the processing

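Members averaging 5 FPKM or more, or called in the FPKM fit, kept their direction in each setting that tested them, except ISG15 with the GC trend removed (0.056 log2 units). CGAS reversed with the trend removed (-0.091, and -0.14 on fragments), and STING1 with equal library sums (0.067), with the trend removed (0.11, and 0.074 on fragments) and without DMSO replicate 1 (0.043, with a range over left-out libraries of -0.17 to 0.043). The causes were not tested. All genes called higher numbered 1171, and 713 with a mean of at least 5 FPKM (fewer genes tested), 2113 with the GC trend removed and 2097 with it removed on fragments. Genes called lower numbered 1331, and 2267 and 2655 in the latter settings. Without each library in turn the counts were 131 to 4030 higher and 176 to 3597 lower, the upper ends without DMSO replicate 3. Of the members from 5 FPKM, 3 were higher as deposited (11.9% of all genes), 5 with the trend removed (21.4%) and 5 with it removed on fragments (17.4%). Without each library in turn 0 to 6 were higher. None was lower as deposited (13.5% of all genes), 1 was on fragments with the trend removed (BST2, beside 22.0%), and 0 to 4 without each library. The higher calls with the trend removed include IRF7 and SAMD9, which reached 5 FPKM only through the corilagin libraries. Of the members under 5 FPKM, 11 of the 15 tested were higher as deposited (11.9% of all genes). On fragments 18 of 28 were higher (12.5%), and 20 of 28 with the trend removed (17.4%). Without a filter 17 were higher, and without each library 2 to 14, with 0 to 1 lower. More members are tested on fragments and without a filter, so these counts cannot be compared directly. A minimum mean of 5 FPKM leaves none of these to test. The 11 called as deposited include IFIT2, IFIT3, HERC6 and SAMD9L. The 18 and 20 on fragments include IFIT1, and the 20 also OAS3. These genes passed the respective minimum only through the corilagin libraries. Of the pathway list 8 were higher (11.9% of all genes), and 17 and 16 with the trend removed as FPKM and as fragments (21.4% and 17.4%). The count was 4 with the higher minimum, 13 with equal library sums, 5 with quantile normalization and 2 to 23 without each library. Its 6 lower calls (13.5% of all genes) became 10 on fragments with the trend removed (22.0%). They became 3 without a filter, 3 with equal library sums and 1 to 18 without each library. The 8 higher include PARP12 and the 16 include TLR8, which passed the respective minimum only through the corilagin libraries. Where no share of all genes stands beside a count, the counts are not compared. Equal library sums moved the median of all genes from 0.03 to 0.14 log2 units and the share of calls that were higher from 46.8% to 60.5%, which was 38.7% with median-of-ratios scaling. The 14 member calls were kept with either other pseudocount.

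The groups share replicate numbers, and the labels do not say that a number marks a shared culture or day. Same-numbered deviations correlated at 0.28, 0.079 and 0.339, not all over 0.1, so the libraries were not treated as paired. Each corilagin library correlated best with the DMSO library of its number, as did DMSO replicates 1 and 3. DMSO replicate 2 correlated best with corilagin replicate 1 (0.279). Some margins were small. With DMSO replicates 1 and 2, corilagin replicate 1 correlated at 0.280 and 0.279 and corilagin replicate 2 at 0.064 and 0.079. Deviations from a group mean cancel within the group, so these values depend on each other and cannot show a pairing. With the replicate block, 1547 genes were called higher and 1330 lower. Of the members from 5 FPKM, 4 were higher and 1 lower (LY6E), 11 of the low members were higher although OAS2 was not called (adjusted p = 0.0591 in limma), and of the pathway list 11 were higher and 5 lower. Depth limits OAS3, IFI44L and IFIT1, each with a DMSO mean under 10 fragments.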

Other observations

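Among genes of the interferon pathway too low for the fit on FPKM, 2 endosomal receptors for single-stranded RNA had more fragments in the corilagin libraries, and were singled out after their values were seen. TLR7 had 76, 92 and 78 fragments after corilagin and 30, 31 and 39 fragments in DMSO (limma-voom log2 difference 1.24, adjusted p = 0.0120). With the GC trend removed the difference of TLR7 was 0.84 log2 units and was still called. TLR8 had 15, 28 and 15 fragments after corilagin and 4, 3 and 3 in DMSO. It passed the minimum of 10 fragments only through the corilagin libraries, so no test is given for it. The groups do not overlap for either gene.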
